A study of Mus musculus with 18 samples.

Results

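The MS4A family genes described here are *Ms4a4c*, *Ms4a6b*, *Ms4a6c*, *Ms4a6d* and *Ms4a7*, 5 of the 20298 genes in an RNA-seq table of mouse monocytes cultured with GM-CSF (granulocyte-macrophage colony-stimulating factor). They were taken by gene symbol, ignoring case. The rule uses no measured value, but the family was picked with earlier results of these data known. The table holds 18 libraries in 6 groups of 3. The labels give C57BL/6 as the strain of all samples, and the study's methods give C57BL/6J as the background of the DKI mice. Wild-type (WT) mice were compared with DKI mice, which carry knocked-in N-domain mutations in both *Stat5a* and *Stat5b*, so that STAT5 still forms dimers but not tetramers. From each genotype, Ly6C+ CCR2+ monocytes were sequenced without stimulation (day 0) and after 3 or 6 days in 20 ng/ml GM-CSF, when they are called monocyte-derived cells (MDCs). Every cell of a DKI mouse carries the mutations, and the ages of the mice that gave the monocytes are not given in the sources used here. The labels give liver as the tissue, whereas the series design and the study's methods give bone marrow. On day 0 the summed level of 5 monocyte markers (*Ly6c2*, *Ccr2*, *Csf1r*, *Itgam*, *Cx3cr1*) was 1602 to 2736 RPKM (reads per kilobase of transcript, scaled to library depth), and that of 4 liver markers (*Alb*, *Apoa1*, *Ttr*, *Clec4f*) was 0.0470 RPKM or less in all 18 libraries.

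MS4A genes encode small tetraspan membrane proteins of blood cells, several of which sit beside other receptors and tune their signalling. The best known members mark lineages outside the monocytes: *Ms4a1* encodes CD20 of B cells, and *Ms4a2* encodes the beta chain of the high-affinity IgE receptor of mast cells and basophils. The genes of the *Ms4a4* and *Ms4a6* groups and *Ms4a7* are expressed by monocytes and macrophages, and *Ms4a7* is a marker of tissue macrophages. GM-CSF signals through STAT5, and drives monocytes toward dendritic cells (moDCs) and macrophages.

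In mm10 (GRCm38.p6), all 5 genes lie on chromosome 19. *Ms4a7* spans 11321039 to 11336146, *Ms4a4c* 11404717 to 11427246, *Ms4a6c* 11469353 to 11487182, *Ms4a6b* 11518559 to 11530403 and *Ms4a6d* 11586606 to 11604804. Promoter windows of 300 bases (250 before to 50 after a RefSeq transcription start) were at hand for 4 of the 5 genes, and that of *Ms4a6d* was not analysed here. The windows of the 3 genes that were high in monocytes and of *Ms4a7*, which was not, are shown because these genes moved in different directions below. Capitals mark matches, on either strand, to a 9-letter interferon response core (GAAANNGAA) or a PU.1 core (GAGGAA), and none of the matches overlap. The third motif searched, the STAT5 palindrome TTCNNNGAA, had 0 matches in these windows.
*Ms4a4c*, plus strand, chr19:11407411-11407710: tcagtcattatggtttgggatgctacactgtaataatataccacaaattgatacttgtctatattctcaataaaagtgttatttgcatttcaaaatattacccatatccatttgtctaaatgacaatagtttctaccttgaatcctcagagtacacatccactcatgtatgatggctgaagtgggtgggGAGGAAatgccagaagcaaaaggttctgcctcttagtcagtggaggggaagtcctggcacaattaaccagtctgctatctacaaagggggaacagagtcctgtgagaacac
*Ms4a6b*, plus strand, chr19:11518309-11518608: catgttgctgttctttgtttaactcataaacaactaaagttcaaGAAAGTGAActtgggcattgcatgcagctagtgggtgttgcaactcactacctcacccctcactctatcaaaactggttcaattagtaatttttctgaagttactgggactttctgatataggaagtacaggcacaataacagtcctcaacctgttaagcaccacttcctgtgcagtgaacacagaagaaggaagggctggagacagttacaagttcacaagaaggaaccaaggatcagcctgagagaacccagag
*Ms4a6c*, plus strand, chr19:11469118-11469417: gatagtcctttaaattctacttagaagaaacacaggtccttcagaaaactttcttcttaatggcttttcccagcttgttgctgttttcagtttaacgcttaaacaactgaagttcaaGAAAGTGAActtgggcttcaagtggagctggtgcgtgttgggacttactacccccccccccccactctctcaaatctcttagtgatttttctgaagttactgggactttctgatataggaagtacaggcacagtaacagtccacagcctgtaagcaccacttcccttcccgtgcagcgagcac
*Ms4a7*, minus strand, chr19:11336097-11336396: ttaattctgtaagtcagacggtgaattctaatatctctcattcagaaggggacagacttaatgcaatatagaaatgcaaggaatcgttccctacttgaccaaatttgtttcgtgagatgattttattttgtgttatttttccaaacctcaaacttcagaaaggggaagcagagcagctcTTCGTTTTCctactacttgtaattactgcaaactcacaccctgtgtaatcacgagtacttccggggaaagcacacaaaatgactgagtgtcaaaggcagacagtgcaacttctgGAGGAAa

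The windows of *Ms4a6b* and *Ms4a6c* shared an identical run of 48 bases, whereas no other pair of windows shared a run of more than 9 bases. Both held the same interferon core, gaaagtgaa, which began 206 bases before the start in *Ms4a6b* and 133 bases before it in *Ms4a6c*. *Ms4a7* held a match on the other strand (ttcgttttc) 71 bases before its start and a PU.1 core 43 bases after it, and a second listed *Ms4a7* start (chr19:11334646-11334945) had an interferon match as well. *Ms4a4c* had no interferon core and 1 PU.1 core, 61 bases before its start. Its window lies inside the span of the gene, which begins at 11404717, and the sequence before that end was not searched. Of the 32851 RefSeq mouse promoter windows, 8.56% held the interferon core, 28.3% the PU.1 core and 8.30% the STAT5 palindrome. These are matches of letters, and no binding was measured.

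Sequencing depth was recovered from the steps between low RPKM values, and was 29542198 to 43157716 reads on genes per library. Every value of the 5 genes rests on at least 28 reads. The 28 reads were those of *Ms4a6b* in WT replicate 3 on day 6, at 0.548 RPKM (exact Poisson 95% interval 0.364 to 0.792), and such intervals cover counting error only. The library names of replicate 1 on days 3 and 6 hold an earlier year than those of the other 14 libraries. Its DKI libraries stood apart in the genes described here, so results on days 3 and 6 are also given without replicate 1. The targeted genes are mutated, not deleted, and do not check the labels: *Stat5a* was 12.1 to 17.1 RPKM in the 6 monocyte libraries, 27.2 to 62.4 RPKM in the 6 WT MDC libraries and 9.22 to 14.4 RPKM in the 6 DKI MDC libraries. The labels only number the replicates, but the study describes its RNA-seq data as coming from independent experiments, so p-values measure the spread between experiments. Which mice went into each library is not given in the sources used here.

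On day 0, the WT and DKI monocyte libraries overlapped for each of the 5 genes. *Ms4a6c* had the highest level in both genotypes, followed by *Ms4a4c* and *Ms4a6b*, whose values overlapped, and then by *Ms4a6d* and *Ms4a7*. *Ms4a6c* was 293, 401 and 472 RPKM in WT replicates 1 to 3 and 307, 432 and 479 RPKM in DKI. *Ms4a4c* was 71.7, 138 and 133 RPKM in WT and 78.6, 166 and 141 RPKM in DKI. *Ms4a6b* was 76.8, 87.3 and 102 RPKM in WT and 82.6, 102 and 117 RPKM in DKI. Within both genotypes replicate 1 was the lowest library for these 3 genes. *Ms4a6d* was 34.6, 34.9 and 36.6 RPKM in WT and 40.8, 35.9 and 56.4 RPKM in DKI, again with overlap. *Ms4a7* was close to its floor, at 2.18, 1.74 and 1.14 RPKM in WT and 1.48, 2.12 and 1.3 RPKM in DKI.

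Genes were compared between groups with limma on log2(RPKM + 1), over genes with a mean above 2 RPKM in a group, and were called at an adjusted p below 0.05 with a fold above 1.5. DKI and WT monocytes did not differ by this rule in any gene (0% of 9179 genes), and 44 genes had an unadjusted p under 0.05. *Ms4a7* did not pass the filter on low values. For the other 4 genes, 0 were called, 0 had an unadjusted p under 0.05 (0.153 to 0.798), and limma-voom on the recovered reads and the fit with the replicate block also called 0. The differences, DKI minus WT on the log2 scale, lay between 0.07 and 0.29. Their 95% intervals ran from −0.74 to 1.06 for *Ms4a4c*, −0.25 to 0.60 for *Ms4a6b*, −0.53 to 0.66 for *Ms4a6c* and −0.14 to 0.73 for *Ms4a6d*. Taken in pairs by replicate number, DKI was above WT in 3 of 3 pairs for each of the 4 genes. The pair differences were 0.02 to 0.61 on the log2 scale, and the adjusted p with the block was 0.998 or more.

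The first 3 days of GM-CSF divided the 5 genes in WT cells. *Ms4a4c*, *Ms4a6b* and *Ms4a6c*, the genes that were high in monocytes, fell, and *Ms4a6d* and *Ms4a7* rose. *Ms4a6b* fell to 3.08, 1.07 and 1.25 RPKM, and its level on day 3 was 0.0203 of that on day 0 by the ratio of means. *Ms4a6c* fell to 18.8, 3.94 and 12.5 RPKM (ratio of means 0.0302). *Ms4a4c* fell to 6.40, 2.73 and 7.92 RPKM (ratio of means 0.0498). All day 3 libraries of these 3 genes lay below all day 0 libraries. *Ms4a6d*, whose protein is a membrane partner of macrophage receptors, rose to 160, 196 and 233 RPKM, a ratio of means of 5.55. *Ms4a7* rose to 7.0, 9.09 and 13.6 RPKM, a ratio of means of 5.86, and remained at a low level. Neither gene had overlapping day 0 and day 3 libraries. The order within WT cells thus changed from *Ms4a6c* first on day 0 to *Ms4a6d* first on day 3. These are bulk samples, in which a change in the share of cells and a change in RNA per cell cannot be told apart.

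The changes in WT were called for 5 of the 5 genes, where 20.3% of 9938 genes were called higher and 22.8% lower. The log2 changes were −5.12 for *Ms4a6c* (SE 0.49, adjusted p = 4.21e-04 from limma), −5.06 for *Ms4a6b* (SE 0.28, adjusted p = 4.95e-05) and −4.14 for *Ms4a4c* (SE 0.39, adjusted p = 3.88e-04). They were 2.42 for *Ms4a6d* (SE 0.17, adjusted p = 1.28e-04) and 1.99 for *Ms4a7* (SE 0.27, adjusted p = 0.00146). The pseudocount makes these values smaller than the ratios for genes near 1 RPKM. All 5 calls and directions were the same in every alternative run, including those that left out any 1 library.

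In DKI cells, the same 3 days of GM-CSF raised *Ms4a6d* and *Ms4a7*, and the other 3 genes depended on the library. *Ms4a7* was 697, 188 and 165 RPKM in DKI MDCs on day 3, against 1.3 to 2.12 RPKM in DKI monocytes, a ratio of means of 214 and of medians of 127. *Ms4a6d* was 903, 353 and 311 RPKM, a ratio of means of 11.8 over day 0. *Ms4a4c* was 559, 20.9 and 13.8 RPKM, so replicate 1 lay above all monocyte libraries and replicates 2 and 3 below all of them. *Ms4a6b* was 421, 47.1 and 24.6 RPKM and showed the same split around its day 0 range. *Ms4a6c* was 465, 107 and 108 RPKM, with replicate 1 inside the day 0 range and the other replicates below it.

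Of these changes in DKI, 2 of 5 were called, where 13.1% of 9922 genes were called higher and 21.1% lower. *Ms4a7* changed by 6.74 on the log2 scale (SE 0.54, adjusted p = 8.73e-04 from limma) and *Ms4a6d* by 3.38 (SE 0.43, adjusted p = 0.00316). The values for *Ms4a4c*, *Ms4a6b* and *Ms4a6c* were −1.13 (SE 1.31), −0.32 (SE 0.96) and −1.18 (SE 0.59), with adjusted p of 0.526, 0.812 and 0.155. Without DKI replicate 1 of day 3, all 5 genes were called. *Ms4a7* then changed by 6.08 and *Ms4a6d* by 2.90 on the log2 scale. *Ms4a4c* changed by −2.78, *Ms4a6b* by −1.52 and *Ms4a6c* by −1.89, with limma adjusted p of 0.00469, 0.0158 and 0.00372. The fall in DKI rested on which libraries were included, whereas the rise of *Ms4a6d* and *Ms4a7* did not.

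**Figure D1:**
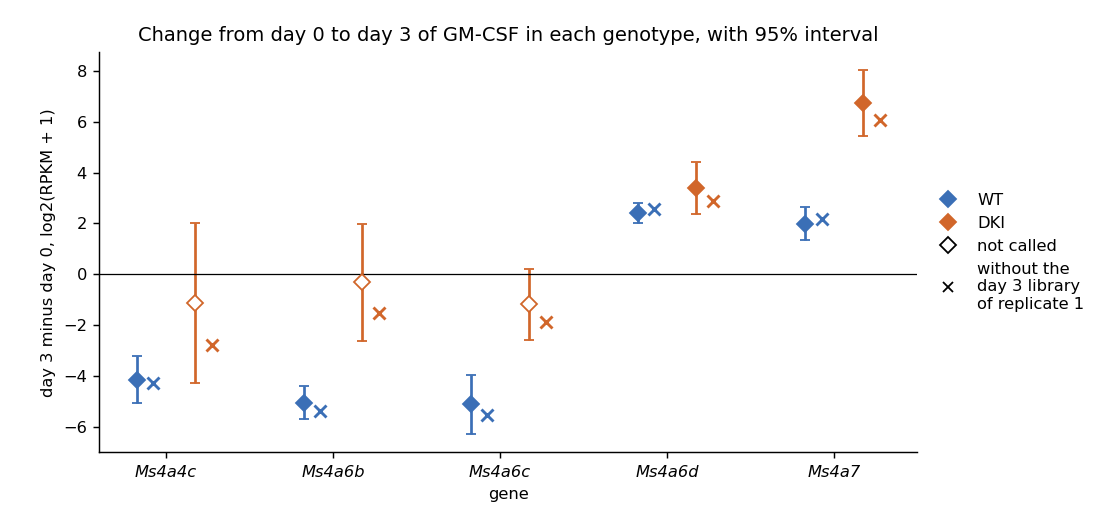
Change from day 0 to day 3 of GM-CSF for each gene in WT (blue) and DKI (orange) cells, as the difference of mean log2(RPKM + 1) with its 95% interval over 3 libraries a group. Filled diamonds passed the limma test, and crosses give the value without the day 3 library of replicate 1. *Ms4a4c*, *Ms4a6b* and *Ms4a6c* lie below 0 in WT, *Ms4a6d* and *Ms4a7* above 0 in both genotypes, and the DKI crosses of the first 3 genes lie below their diamonds.

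On day 3, all DKI libraries lay above all WT libraries for 5 of the 5 genes, an order seen in 13.4% of 9740 genes. *Ms4a7*, the only gene of the 5 that was called in every alternative run on day 3, was 7.0 to 13.6 RPKM in WT and 165 to 697 RPKM in DKI MDCs, a ratio of means of 35.4. *Ms4a6b* was 1.07 to 3.08 RPKM in WT and 24.6 to 421 RPKM in DKI, a ratio of means of 91.3 and of medians of 37.5. *Ms4a6c* was 3.94 to 18.8 RPKM in WT and 107 to 465 RPKM in DKI, with ratios of 19.3 and 8.64. *Ms4a4c* was 2.73 to 7.92 RPKM in WT and 13.8 to 559 RPKM in DKI. Its ratio of means was 34.8, and its ratio of medians, which does not follow the single high library, was 3.26. *Ms4a6d*, the only one of the 5 genes at a high level in WT MDCs, differed least, at 160 to 233 RPKM in WT and 311 to 903 RPKM in DKI (ratio of means 2.66).

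**Figure D2:**
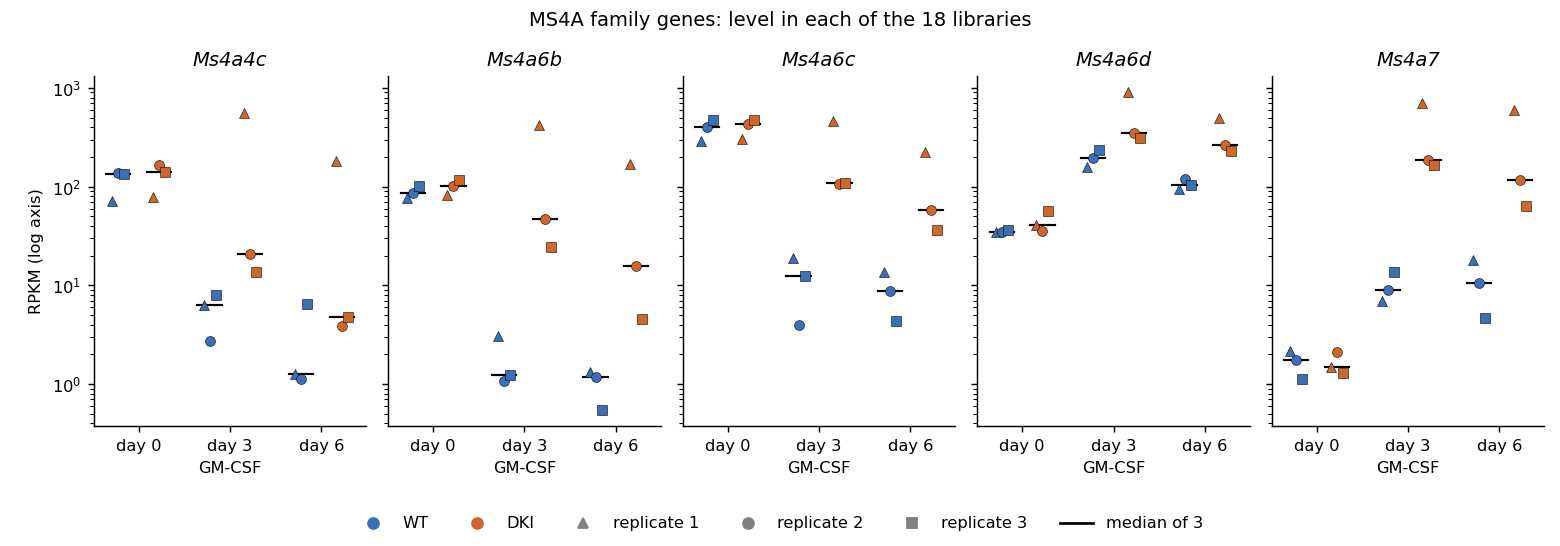
RPKM on a log axis of each gene in each of the 18 libraries, by day and genotype, with the replicate number as the marker and the median of 3 as a line. The DKI libraries of replicate 1 (orange triangles) on days 3 and 6 lie above all other MDC libraries for each of the 5 genes.

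By the limma test, 3 of the 5 genes were called higher in DKI MDCs on day 3, where 3.21% of genes were called higher and 4.21% lower. The log2 differences were 4.91 for *Ms4a6b* (SE 1.0, adjusted p = 0.0389), 4.01 for *Ms4a6c* (SE 0.73, adjusted p = 0.0290) and 4.73 for *Ms4a7* (SE 0.57, adjusted p = 0.0105). *Ms4a4c* (3.17, SE 1.35, adjusted p = 0.196) and *Ms4a6d* (1.25, SE 0.43, adjusted p = 0.135) did not pass. Their 95% intervals were −0.06 to 6.41 and 0.21 to 2.29. Over the 5 genes the median log2 difference was 4.01, and over all genes fitted it was −0.11. Without any 1 of the 3 WT libraries, or without a filter on low values, *Ms4a7* was the only gene of the 5 still called. Without DKI replicate 2, *Ms4a6c* and *Ms4a7* were called, and limma-voom on the recovered reads called these 2 genes as well.

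Taken in pairs by replicate number, DKI exceeded WT on day 3 in 3 of 3 pairs for each gene. For *Ms4a4c* they were 6.24, 2.55 and 0.73 on the log2 scale in pairs 1, 2 and 3. For *Ms4a6b* they were 6.70, 4.54 and 3.51, for *Ms4a6c* 4.56, 4.45 and 3.01, for *Ms4a6d* 2.49, 0.85 and 0.41, and for *Ms4a7* 6.45, 4.23 and 3.51. Pair 1, which carries the earlier year, gave the largest difference for each gene. In the other pairs alone, with 2 libraries a group, the limma differences were 1.64 for *Ms4a4c* (adjusted p = 0.145), 4.02 for *Ms4a6b* (0.0255), 3.73 for *Ms4a6c* (0.0394), 0.63 for *Ms4a6d* (0.135) and 3.87 for *Ms4a7* (0.0171). The same 3 genes were called as in all libraries.

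On day 6 the DKI libraries again lay above the WT libraries for 4 of the 5 genes, an order seen in 10.6% of 9842 genes. *Ms4a7* was 17.9, 10.5 and 4.68 RPKM in WT and 603, 116 and 64.2 RPKM in DKI MDCs, a ratio of means of 23.6. *Ms4a6d* was 94.8, 121 and 104 RPKM in WT and 494, 267 and 232 RPKM in DKI, a ratio of 3.10. *Ms4a6c* was 13.6, 8.84 and 4.36 RPKM in WT and 227, 58.3 and 36.1 RPKM in DKI, a ratio of 12. *Ms4a6b* was 1.34, 1.19 and 0.548 RPKM in WT and 171, 15.6 and 4.55 RPKM in DKI, a ratio of 62.3. *Ms4a4c* was the exception, with 1.28, 1.14 and 6.44 RPKM in WT and 180, 3.88 and 4.81 RPKM in DKI. Apart from the 180 RPKM of replicate 1, its DKI libraries lay inside the WT range, and pair 3 differed by −0.36 on the log2 scale.

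On day 6, limma called *Ms4a6d* (log2 difference 1.55, SE 0.31, adjusted p = 0.0379) and *Ms4a7* (3.95, SE 0.86, adjusted p = 0.0452) higher in DKI, where 2.72% of genes were called higher and 4.82% lower. *Ms4a6c* (3.12, SE 0.71, adjusted p = 0.0501), *Ms4a6b* (3.66, SE 1.16, adjusted p = 0.0991) and *Ms4a4c* (2.38, SE 1.41, adjusted p = 0.314) were not called. With the replicate number as a block, *Ms4a6c* was called (adjusted p = 0.0220) and *Ms4a6d* was not (adjusted p = 0.0573), and *Ms4a7* stayed called (0.0219). These calls were lost easily. None of the 5 genes was called without replicate 1 of the later days, without any 1 of the 3 WT libraries or without DKI replicate 3, and *Ms4a6d* alone was called without DKI replicate 1 or 2. The differences without replicate 1 were 1.14 for *Ms4a6d* (adjusted p = 0.152), 3.43 for *Ms4a7* (0.101), 2.69 for *Ms4a6c* (0.111), 2.38 for *Ms4a6b* (0.182) and 0.42 for *Ms4a4c* (0.742).

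**Figure D3:**
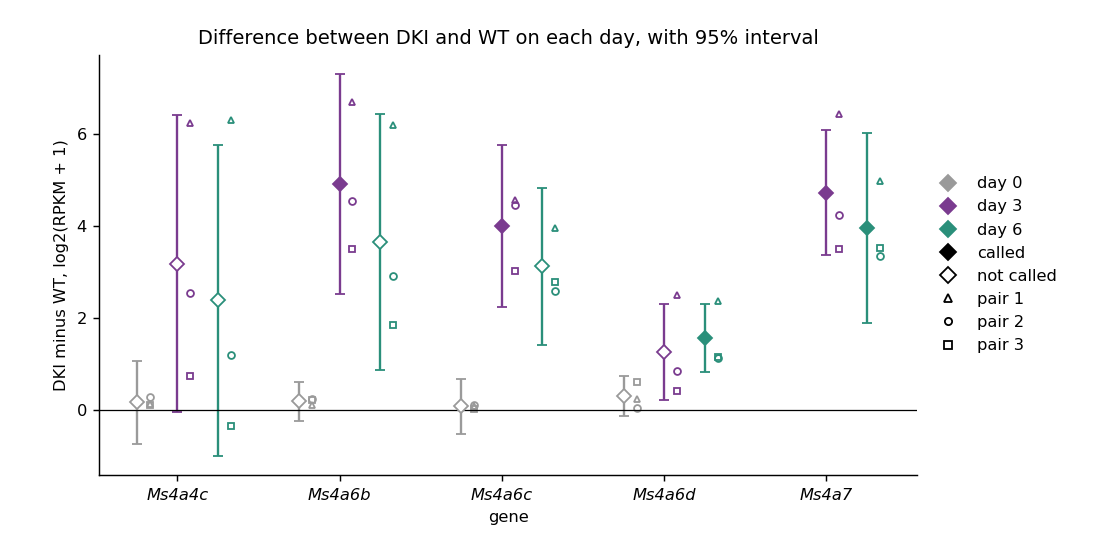
Difference between DKI and WT in log2(RPKM + 1) for each gene on days 0, 3 and 6, with the 95% interval from limma (diamonds, filled where called) and the difference of each same-numbered pair (small markers). On day 0 the 4 genes fitted lie within 0.29 of 0, and on days 3 and 6 pair 1 (triangles) gives the largest difference for each gene.

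The difference between the genotypes was larger on day 3 than on day 0 for 3 of the 5 genes by the interaction term, where 1.2% of 10212 genes were called higher. This term, which is the DKI minus WT difference on day 3 less that on day 0, was 4.74 for *Ms4a6b* (SE 1.11, adjusted p = 0.0493 from limma), 3.94 for *Ms4a6c* (SE 0.84, adjusted p = 0.0341) and 4.75 for *Ms4a7* (SE 0.65, adjusted p = 0.00402). It was 3.01 for *Ms4a4c* (SE 1.53, adjusted p = 0.381) and 0.96 for *Ms4a6d* (SE 0.49, adjusted p = 0.388). The call of *Ms4a6b* lay close to the threshold. Leaving out any 1 of the day 0 libraries, or WT replicate 2 or 3 of day 3, left *Ms4a7* as the only call, and limma-voom called 0 of the 5. For day 6 against day 0, 0 of the 5 genes were called, where 0.898% of 10353 genes were called higher, and 4 of the 5 had an unadjusted p under 0.05 (limma, and limma-voom also called 0). With the replicate block, *Ms4a7* (3.98, adjusted p = 0.00613) and *Ms4a6c* (3.05, adjusted p = 0.00714) were called, and they were also called without replicate 1 of the later days (adjusted p of 0.0126 and 0.0351).

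Between day 3 and day 6 the limma test called no gene in either genotype (0% of 9613 genes in WT and 0% of 9540 in DKI), with 722 and 93 genes at an unadjusted p under 0.05. For the genotype difference between these days it also called no gene (0% of 9985 genes, with 89 at an unadjusted p under 0.05), and the fits with the replicate block and with limma-voom called 0 as well. Among the 5 genes, *Ms4a6d* in WT had the only unadjusted p under 0.05 by limma. It went from 160 to 233 RPKM down to 94.8 to 121 RPKM without overlap, a log2 change of −0.87 (SE 0.18, adjusted p = 0.613). *Ms4a6b* in WT did not pass the filter on low values on these days. In DKI the 5 changes lay between −1.71 (*Ms4a4c*) and −0.57 (*Ms4a6d*), each gene was lower on day 6 in 3 of 3 same-numbered pairs, and the groups overlapped for each gene.

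Over all 6 groups, the mean level of *Ms4a7* ran from DKI day 3 (350 RPKM) and DKI day 6 (261 RPKM) to WT day 6 (11 RPKM), WT day 3 (9.89 RPKM), WT day 0 (1.69 RPKM) and DKI day 0 (1.63 RPKM). Only the steps from DKI day 6 to WT day 6 and from WT day 3 to WT day 0 were free of overlap. The mean of *Ms4a6d* ran from DKI day 3 (523 RPKM) through DKI day 6 (331 RPKM), WT day 3 (196 RPKM), WT day 6 (107 RPKM) and DKI day 0 (44.4 RPKM) to WT day 0 (35.4 RPKM). Its neighbours in this order did not overlap between WT day 3 and WT day 6 and between WT day 6 and DKI day 0. *Ms4a6c* began instead with the monocytes (406 RPKM in DKI and 389 RPKM in WT), followed by DKI day 3 (226 RPKM), DKI day 6 (107 RPKM), WT day 3 (11.7 RPKM) and WT day 6 (8.94 RPKM). For *Ms4a6b* and *Ms4a4c* the mean of DKI day 3 (164 and 198 RPKM) stood first, above the monocytes, by the value of replicate 1. For *Ms4a6b* and *Ms4a6c* the only step without overlap was that from DKI day 6 to WT day 3, and *Ms4a4c* had none.

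The 5 genes followed a pair of patterns over the 18 libraries. In log2(RPKM + 1), Pearson's r was 0.97 between *Ms4a6b* and *Ms4a6c*, 0.93 between *Ms4a4c* and *Ms4a6b*, and 0.90 between *Ms4a4c* and *Ms4a6c*. It was 0.93 between *Ms4a6d* and *Ms4a7*. Between the 2 sets it lay from −0.27 (*Ms4a6c* and *Ms4a6d*) to 0.13 (*Ms4a6b* and *Ms4a7*). These values describe 18 libraries that share days, genotypes and the high DKI libraries of replicate 1. Among 10412 other genes with a mean above 2 RPKM in a group, those most like *Ms4a6c* were *Ltbr* (r = 0.973), *Csf3r* (0.969) and *Serinc3* (0.966). Those most like *Ms4a6b* were *Csf3r* (0.969), *Ifi203* (0.969) and *Mndal* (0.957), of which the last 2 belong to the interferon-inducible *Ifi200* family. Those most like *Ms4a4c* were the MS4A gene *Ms4a4d* (0.962), *Nfxl1* (0.959) and *Cxcl10* (0.953), an interferon-induced chemokine. *Ms4a6d* was most like *Slc66a1* (0.961), *Xkr8* (0.961) and *Akr1a1* (0.959), and *Ms4a7* was most like *Kif3a* (0.969), *Scamp5* (0.968) and *Hs2st1* (0.968).

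The table holds 20 *Ms4a* genes, all on chromosome 19 within 679 kb, and the related *Tmem176a* and *Tmem176b* on chromosome 6. Of the 17 family genes outside the 5, 8 or fewer passed the filter in any comparison. *Ms4a5*, *Ms4a10* and *Ms4a13* were listed at 0 in all libraries, and *Ms4a15*, *Ms4a18*, *Ms4a19* and *Ms4a20* did not exceed 0.0806 RPKM. Among the lineage markers of the family, *Ms4a1* (CD20) did not exceed 0.241 RPKM and *Ms4a2* did not exceed 1.19 RPKM. *Ms4a3*, a gene of granulocyte and monocyte progenitors, was 16.3 to 33.8 RPKM on day 0. It was 0.190 to 19.3 RPKM on day 3 and reached 13.2 RPKM or more only in WT replicate 2 and DKI replicates 1 and 2. In WT it was called lower on day 3 (log2 change −2.60, SE 0.82, adjusted p = 0.0359 from limma) although the groups overlapped, and not without replicate 1 (−2.25, adjusted p = 0.106).

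In WT MDCs on day 3, the genes between *Ms4a4a* and *Ms4a6d* on the chromosome all fell. *Ms4a4c*, *Ms4a4b*, *Ms4a6c*, *Ms4a6b* and *Ms4a4d* follow each other there, and 5 of these 5 genes were called lower, where 22.8% of all genes fitted were. This row of genes was marked off after its values were seen. *Ms4a4b*, known from T cells, went from 10.6, 19.1 and 24.5 RPKM to 0.698, 0.296 and 0.642 RPKM (log2 change −3.56, SE 0.31, adjusted p = 2.82e-04 from limma). *Ms4a4d* went from 1.79, 4.34 and 3.08 RPKM to 0.155, 0.0726 and 0.404 RPKM (−1.71, SE 0.29, adjusted p = 0.00340). *Ms4a8a*, which lies apart from this row of genes, also fell, from 29.7 to 34.7 RPKM down to 0.236 to 1.03 RPKM (−4.41, SE 0.21, adjusted p = 3.10e-05). *Ms4a4a*, a macrophage gene whose protein associates with the beta-glucan receptor Dectin-1, lies next to this row and was 87.7, 138 and 55.2 RPKM on day 0 and 111, 79.0 and 77.8 RPKM on day 3 (0.01, SE 0.33, adjusted p = 0.986). Close paralogs can share reads: 8.19% of the 50-base stretches of *Ms4a4c* transcripts (GENCODE M21) also occurred in *Ms4a4b* or *Ms4a4d*, 5.85% of those of *Ms4a6c* in *Ms4a6b*, 3.44% of those of *Ms4a6b* in *Ms4a6c* or *Ms4a6d* and 2.31% of those of *Ms4a6d* in *Ms4a6b*. For *Ms4a7* the share was 0%. Counting genes outside the family, 51.4% of the stretches of *Ms4a6c* also occurred elsewhere, the largest share of the 5. The effect of this on its level was not measured. How reads matching more than 1 place were counted is not given in the sources used here.

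**Figure D4:**
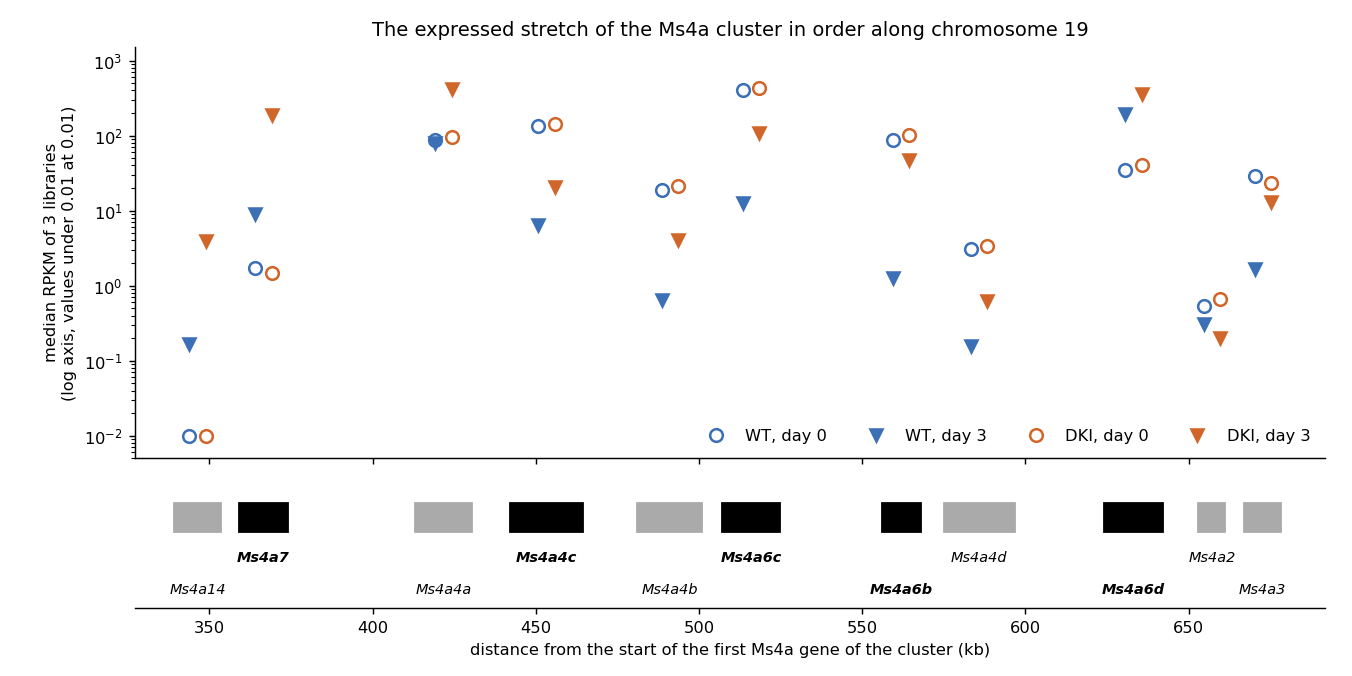
Median RPKM of 3 libraries on a log axis for WT (blue) and DKI (orange) on day 0 (open circles) and day 3 (filled triangles), for the 11 *Ms4a* genes at the expressed end of the cluster, placed by distance in kb from the start of its first gene. The 5 genes described here are in black. From *Ms4a4c* to *Ms4a4d* the WT triangles lie below the WT circles and the DKI triangles lie between them, whereas for *Ms4a14*, *Ms4a7* and *Ms4a6d* the triangles lie above the circles.

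In DKI MDCs, *Ms4a4a* was 1378, 424 and 375 RPKM on day 3, the highest level of any family gene in the table. It was called higher than in WT MDCs (log2 difference 2.76, SE 0.51, adjusted p = 0.0299 from limma) and stayed so without replicate 1 (2.33, adjusted p = 0.0191). It was the only 1 of the 8 other family genes fitted that was called on day 3. On day 6 *Ms4a4a* was 735, 144 and 154 RPKM in DKI against 172, 65.0 and 183 RPKM in WT, and the groups overlapped (0.99, SE 0.72, adjusted p = 0.404). *Ms4a14*, the neighbour of *Ms4a7*, was at most 0.0213 RPKM on day 0 and at most 0.371 RPKM in WT MDCs, and was 16.9, 3.95 and 2.43 RPKM in DKI MDCs on day 3 and 7.59, 2.19 and 2.77 RPKM on day 6. It was called on day 6 (1.96, SE 0.40, adjusted p = 0.0405) and not on day 3 (2.53, SE 0.59, adjusted p = 0.0541), and not on day 6 without replicate 1 (1.61, adjusted p = 0.138). With the replicate block, *Ms4a8a* was called on day 6 as well (2.5, adjusted p = 0.0486, against 0.0877 without the block). *Tmem176a* and *Tmem176b*, whose transcribed regions overlap, did not pass the test on either day (adjusted p of 0.461 or more). Of the 39 genes within 500 kb of the cluster that are not *Ms4a* genes, 18 were fitted on day 3 and 19 on day 6. None was called higher in DKI, where 3.21% of all genes fitted were on day 3 and 2.72% on day 6. On day 3, 1 was called lower (*Cyb561a3*), and on day 6 also 1 (*Tkfc*), where 4.21% and 4.82% of all genes were. With so few genes, these counts cannot be told from those shares. The median log2 differences were −0.27 and −0.34.

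Proteins known to associate with MS4A proteins were followed in a list of 7 genes, of which *Vsig4* was not analysed here and 5 of the other 6 passed the filter on days 3 and 6. *Trem2*, a lipid receptor whose shed form is linked to the MS4A locus in humans, was 44.3, 47.7 and 104 RPKM in WT and 113, 221 and 219 RPKM in DKI cells at day 3, a log2 difference of 1.53 (adjusted p = 0.0801 from limma). On day 6 it was 66.5, 121 and 58.2 RPKM in WT and 300, 298 and 304 RPKM in DKI, and was called (1.94, SE 0.29, adjusted p = 0.0217). *Clec7a*, which encodes Dectin-1, overlapped on day 3 and was called higher on day 6 (1.53, SE 0.29, adjusted p = 0.0341). *Tnfrsf18*, which encodes GITR, was called lower in DKI on both days (−2.27, adjusted p = 0.0188, and −2.17, adjusted p = 0.0268), and not on day 6 with the replicate block (adjusted p = 0.0514). The signalling chains *Tyrobp* and *Fcer1g* differed by 0.45 to 0.54 and were not called. Without replicate 1, none of the 5 was called on either day. *Fcer1a*, the IgE receptor chain that pairs with *Ms4a2*, did not exceed 0.726 RPKM in any library. Thus 0 of the 5 genes fitted were called higher on day 3 and 2 on day 6, where 3.21% and 2.72% of all genes were. *Tnfrsf18* alone was called lower, where 4.21% and 4.82% of all genes were.

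The DKI libraries of replicate 1 differed from the other DKI libraries far more for some of the 5 genes than for others. On day 3, replicate 1 was 32.2 times the mean of replicates 2 and 3 for *Ms4a4c*, 11.8 times for *Ms4a6b*, 4.33 times for *Ms4a6c*, 3.95 times for *Ms4a7* and 2.72 times for *Ms4a6d*. On day 6 these ratios were 41.3, 17.0, 4.82, 6.69 and 1.98. In WT MDCs the ratios of replicate 1 lay between 0.337 and 2.65, and in monocytes between 0.512 and 1.51. A list of 12 interferon-response genes (*Ifit1*, *Ifit2*, *Ifit3*, *Isg15*, *Rsad2*, *Mx1*, *Oas1a*, *Oasl2*, *Irf7*, *Usp18*, *Cxcl10*, *Ifi44*) was also highest in these libraries. Its summed level in DKI MDCs was 5241, 586 and 143 RPKM on day 3 and 2145, 209 and 274 RPKM on day 6, against 32.8 to 116 RPKM in the 6 WT MDC libraries. *Irf7*, a transcription factor of the interferon response, was 1423, 117 and 20.1 RPKM in DKI and 10.5, 1.03 and 5.32 RPKM in WT on day 3.

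**Figure D5:**
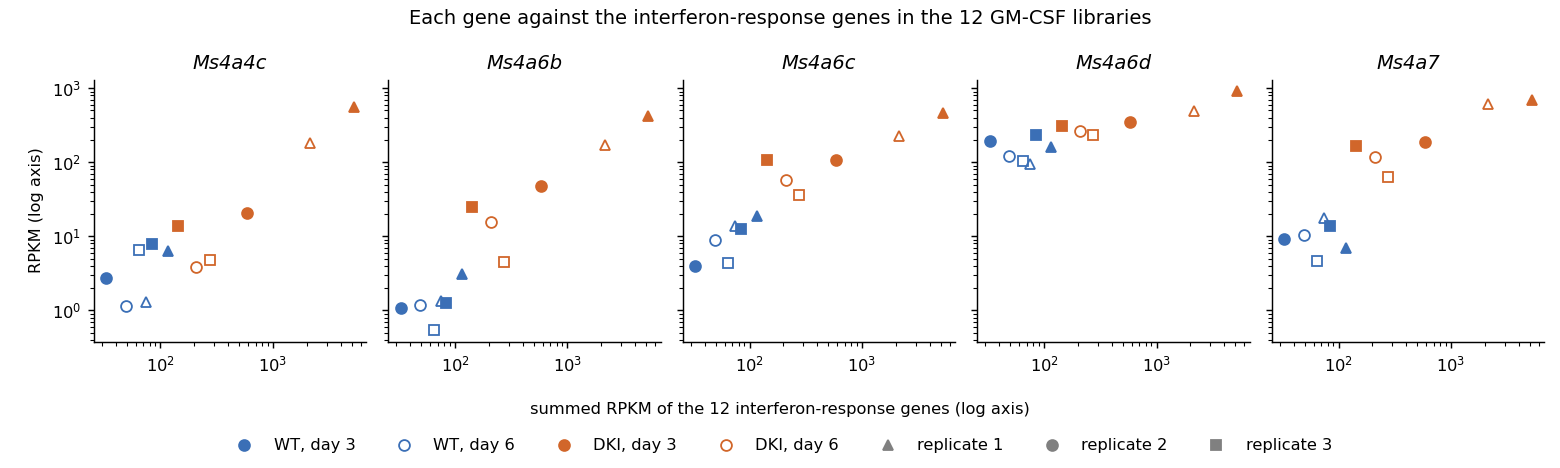
RPKM of each gene against the summed RPKM of the 12 interferon-response genes, both on log axes, in the 12 MDC libraries (blue WT, orange DKI, filled day 3, open day 6, marker for the replicate). The DKI libraries of replicate 1 lie at the upper right of each panel, at 5241 RPKM on day 3 and 2145 RPKM on day 6 on the horizontal axis.

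By the limma test, 0 of the 12 interferon-response genes were called on day 3 (9 had an unadjusted p under 0.05, and 0 were called with the block or by limma-voom), with a median log2 difference of 3.6. On day 6, 3 of the 12 were called higher (*Oasl2*, *Irf7* and *Rsad2*), with a median of 3.41, against −0.17 over all genes fitted. The replicate block called 5 of the 12 on day 6, limma-voom 2, and the libraries without replicate 1 gave 4. On day 6 the interferon sums of DKI replicates 2 and 3 lay above all WT sums, while *Ms4a4c* in these libraries lay inside its WT range. On day 0, when *Ms4a4c*, *Ms4a6b* and *Ms4a6c* were at 71.7 to 479 RPKM, the sum was 110 to 214 RPKM. Pearson's r between the interferon sum and each of the 5 genes in log2 was 0.86 to 0.94 over the 6 DKI MDC libraries, −0.05 to 0.82 over the 6 WT MDC libraries and 0.88 to 0.95 over all 12, which share days and the high DKI replicate 1. The part of the interferon-response genes in the levels of the 5 genes was not tested.

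Markers of other cells also differed between MDC libraries. The summed level of 7 genes of neutrophils and granulocyte progenitors was 1223 to 1629 RPKM in the monocyte libraries. On day 3 it was 27, 545 and 6.00 RPKM in WT and 434, 533 and 38.2 RPKM in DKI, and on day 6 it was 168, 12 and 4.38 RPKM in WT and 532, 11.8 and 13.7 RPKM in DKI. WT replicate 2 of day 3 was thus the highest MDC library on this list, and its *Ms4a4c*, *Ms4a6b* and *Ms4a6c* were the lowest of the 3 WT libraries. Over the 6 DKI MDC libraries, Pearson's r between this sum and the 5 genes in log2 was 0.76 to 0.85, where the libraries share days and the high replicate 1. Over the 6 WT MDC libraries it was −0.51 to 0.36, and over all 12 it was 0.47 to 0.59. The 5 monocyte markers summed to 758 to 1139 RPKM in WT and 1394 to 2239 RPKM in DKI MDCs on day 3, and to 602 to 1070 RPKM in WT and 1346 to 1596 RPKM in DKI on day 6. Of the 4 that were fitted, limma called 0 on either day, with the replicate block or by limma-voom as well, and 2 on day 3 and 1 on day 6 had an unadjusted p under 0.05. *Ly6c2*, which encodes the Ly6C surface marker of these monocytes, was 11.2, 39.8 and 17.1 RPKM in WT and 775, 49.5 and 73.8 RPKM in DKI on day 3. On day 6 it was 13.1, 12.9 and 8.66 RPKM in WT and 158, 10.5 and 5.30 RPKM in DKI, so that replicate 1 was far above the other DKI libraries on both days, as it was for *Ms4a4c*, *Ms4a6b* and *Ms4a6c*. The list was not uniform. *Ccr2*, a chemokine receptor used to define these monocytes, was 32.5, 106 and 395 RPKM in DKI on day 3 and 33.3, 98.7 and 168 RPKM on day 6. *Itgam*, an integrin chain, was 526, 778 and 855 RPKM in DKI on day 3 and 625, 873 and 981 RPKM on day 6. For both of these genes replicate 1 was the lowest DKI library on each day. *Csf1r*, the M-CSF receptor, was highest in replicate 1, at 905, 461 and 585 RPKM in DKI on day 3 and 780, 364 and 261 RPKM on day 6. *Cx3cr1* did not exceed 0.198 RPKM in the 6 DKI MDC libraries. The part of the neutrophil and monocyte markers in the results was not tested. The B cell list (5 genes) summed to 0.183 to 0.736 RPKM in WT and 1.21 to 7.10 RPKM in DKI MDCs, with *Ms4a1* at most 0.0494 RPKM there. The T or NK cell list (5 genes) did not exceed 1.22 RPKM, and the mast cell or basophil list (5 genes) was 1.17 to 96.3 RPKM in WT and 2.38 to 18.5 RPKM in DKI MDCs. Of 6 moDC markers (*Cd209a*, *Ccr7*, *Ccl17*, *Ccl22*, *Irf4*, *Flt3*), 5 were called lower in DKI on both days. Of 8 macrophage markers (*Mrc1*, *Pf4*, *Stab1*, *Fcgr1*, *Fcgr4*, *Mertk*, *Adgre1*, *Arg1*), 6 were called higher on day 3 and 4 on day 6. The study named all of these except *Flt3*, *Mertk* and *Adgre1* as changed in this same RNA-seq, so the counts are not independent of it. Over all genes fitted, 4.21% and 4.82% were called lower and 3.21% and 2.72% higher on these days. With the replicate block the list counts were 4 and 4 for the moDC markers and 5 and 6 for the macrophage markers. Without replicate 1 they were 2 and 1 for the moDC markers and 3 and 0 for the macrophage markers. The macrophage sum was 261 to 670 RPKM in WT and 1374 to 6410 RPKM in DKI MDCs. On day 3 it was highest in replicate 1 (5138, 3178 and 2958 RPKM in DKI). On day 6 it was not (5537, 1374 and 6410 RPKM). *Arg1* was then 1111, 41.7 and 4489 RPKM in DKI, and *Mrc1* was also highest in replicate 3. The other macrophage markers were highest in replicate 1 on day 6, as were the 5 MS4A genes. Pearson's r between this sum and the 5 genes in log2 was 0.67 to 0.90 over all 12 MDC libraries. It was 0.27 to 0.51 over the 6 DKI and −0.15 to 0.85 over the 6 WT MDC libraries. The part of the macrophage markers was not tested.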

How the data were processed

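RNA from 18 monocyte and MDC libraries was made into poly(A) libraries and sequenced as single reads. The authors mapped the reads to mm10 with Subread, counted them per RefSeq gene with featureCounts (versions are not given in the sources used here) and deposited RPKM values, which are the only values used. RPKM is scaled to each library's total, so a change in a few abundant genes shifts all others. Reads per gene were recovered from the steps of the values: 10407 of 10417 genes (99.9%) gave whole reads in all 18 libraries within 0.02 reads. Of the 20298 genes, 20082 matched RefSeq by ID.

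Values were transformed as log2(RPKM + 1). Genes with a mean above 2 RPKM in a compared group were tested with limma 3.58.1 (empirical Bayes with trend, R 4.3.3), using the libraries of the compared groups, with Benjamini-Hochberg adjustment over all genes fitted. Two-sided tests were used, and calls needed an adjusted p below 0.05 and a fold above 1.5. The test was checked on simulated data with independent noise of the WT day 3 spread in every group. That check did not cover a larger DKI spread, an outlying replicate or paired libraries. Groups came from the labels. The genes described are the 5 members, the fixed lists, and for likeness the 3 genes with the highest Pearson's r to each member. *Ms4a8a*, *Ms4a3* and genes of other lists named singly were chosen after their values were seen.

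Deviations from the group means correlated between same-numbered WT and DKI libraries (r of 0.69 to 0.87 on day 0, 0.16 to 0.37 on day 3 and 0.34 to 0.41 on day 6), so the replicate numbers were taken as pairs there and the blocked fit is given where it changes a call. Alternatives were other pseudocounts, filters and scalings, all 18 libraries in 1 fit, the block, and leaving out each library. The fits without replicate 1 of days 3 and 6 and limma-voom were chosen after seeing the data. Genes and lists were chosen with earlier results of these data known.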

Additional observations from a re-analysis of the deposited data

Results flagged for a closer look

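The difference between DKI and WT changed between day 0 and day 3 for 3 of the 5 genes, by the limma interaction term. Of 10212 genes, 1.2% were called higher by this term. *Ms4a7* did not differ visibly in monocytes (1.69 and 1.63 RPKM as the means of WT and DKI) and the term was 4.75 on the log2 scale. For *Ms4a6c* it was 3.94, and for *Ms4a6b* 4.74. On day 3 the difference was positive in 3 of 3 same-numbered pairs for each of these genes. The calls of *Ms4a6b* and *Ms4a6c* did not hold when any 1 of the day 0 libraries was left out, and limma-voom called none of the 5 genes.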

How the results depend on the processing

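Of 806 values of single genes under an alternative, 716 kept their direction and their side of the threshold, 51 lost the call, 23 gained one and 16 changed sign. On day 3, the 3 calls between DKI and WT became 1 without a filter on low values and 1 to 3 without any 1 library. On day 6, the 2 calls became 0 without a filter, 4 with all 18 libraries in 1 fit, 0 to 1 without any 1 library, 0 without replicate 1 of days 3 and 6, and 1 with limma-voom. The 2 calls in DKI between days 0 and 3 became 2 to 5 without any 1 library and 5 without replicate 1. The interaction of day 3 with day 0 went from 3 calls to 1 without a filter, 1 to 3 without any 1 library and 0 with limma-voom. That of day 6 with day 0 went from 0 calls to 1 with all 18 libraries, 1 with quantile normalization, 0 to 2 without any 1 library and 2 without replicate 1. The causes were not tested. The counts of the other 5 comparisons were the same in every alternative.

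With the replicate block, the interaction of day 6 with day 0 had 2 calls in place of 0, and over all genes 1401 in place of 290. That of day 3 with day 0 had 1040 in place of 297 over all genes and 3 in both fits among the 5. Over all genes the block gave 551 calls in place of 723 on day 3 and 719 in place of 742 on day 6. Among the 5 genes it changed no call beyond those given for day 6. Between days 0 and 3 the numbers did not pair the libraries (r of −0.21 to 0.18), and the block gave 3788 calls in place of 4283 in WT and 3179 in place of 3394 in DKI.

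Signs changed only in values that were not called with all libraries. Without any 1 library, the day 0 difference ran from −0.14 to 0.48 for *Ms4a4c* and −0.12 to 0.25 for *Ms4a6c*. The WT change from day 3 to day 6 ran from −0.83 to 0.17 for *Ms4a6c* and −0.38 to 0.48 for *Ms4a7* (−0.58 without replicate 1), the DKI change from day 0 to day 3 from −1.52 to 0.50 for *Ms4a6b*, and the interaction of day 6 with day 3 from −2.49 to 0.86 for *Ms4a4c* and −0.03 to 0.78 for *Ms4a6d*.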
